A study of Homo sapiens with 4 samples.

Results

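Nuclear receptors are transcription factors, many of them switched on by small fat-soluble ligands, and their genes were examined for acetylation of histone H3 at lysine 27 (H3K27ac), a mark of active promoters and enhancers. The set held 45 genes chosen by name from the family, out of 19970 protein-coding genes on chromosomes 1 to 22 and X. It was divided into 11 hormone receptor genes (5 steroid receptors and 6 receptors for thyroid hormone, vitamin D and retinoic acid) and 34 orphan and metabolic receptor genes (3 RXR genes, 8 metabolic receptors and 23 orphan receptors). All 45 were found in the annotation, GENCODE release 44 on hg38.

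Steroid receptors wait in the cytoplasm or nucleus for hormone, bind DNA mostly as homodimers and are carried by chaperones until then. Receptors for thyroid hormone, vitamin D, retinoic acid, fatty acids, oxysterols and bile acids sit on DNA as heterodimers with an RXR, exchanging corepressors for coactivators when ligand binds. Orphan receptors are named for the lack of a known ligand, and the class as used here also takes in some assigned a ligand since. Several of them serve the circadian clock, the immediate early response or cell fate decisions. In breast tissue the estrogen and progesterone receptors define the luminal state, and tumours classed as triple-negative lack both proteins and HER2 amplification.

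Peak lists came from 4 chromatin immunoprecipitation sequencing (ChIP-seq) libraries of MDA-MB-231 and Hs578T, established triple-negative breast cancer cell lines with mesenchymal features. All 4 shared one treatment: the cells were seeded in DMEM with 10% serum, starved for 8 h in Opti-MEM, given the cytokine TWEAK at 10 ng/ml over 48 h (renewed after 24 h), and then kept for 72 h without it per the series design. Elsewhere in the study's text the wash-off is longer, and the conflict was not resolved here. Untreated libraries were not analysed here, and the values therefore describe the washed-out state alone.

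The 2 lists labelled MDA-MB-231 differed widely in size. Only 209 peaks on these chromosomes were in the list labelled MDA-MB-231 replicate 1, against 43353 for MDA-MB-231 replicate 2 and 46330 and 44920 for the Hs578T replicates. It marked 12 of the 19970 canonical start sites (0.0601%), and 0.0701% of genes at any basic start site, none of them a receptor gene. It had 0 covered bases within 50 kb of all 45 receptor start sites, as of 98.9% of all genes. Of the peaks labelled MDA-MB-231 replicate 2, 94.2% and 91.2% overlapped a peak of Hs578T replicates 1 and 2. Of the peaks of Hs578T replicate 2, 93.4% overlapped Hs578T replicate 1 and 87.9% overlapped MDA-MB-231 replicate 2. For the peaks of Hs578T replicate 1 the shares were 88.8% with Hs578T replicate 2 and 86.4% with MDA-MB-231 replicate 2. These overlaps did not set the list labelled MDA-MB-231 replicate 2 apart from the Hs578T lists. Line labels were taken as given and not checked, so calls shared by the large lists may not be read as shared by the lines. The small list was held apart for its size. Values below are from the 3 large lists, always in the order MDA-MB-231 replicate 2, Hs578T replicate 1, Hs578T replicate 2. With 2 lists per line there are 3 ways to split 4 lists, and the smallest exact two-sided p-value is 1 in 3, so the lines were not tested against each other. Promoters of all 5 mesenchymal markers (VIM, CD44, AXL, FN1, SNAI2) carried a peak in each large list. Of 7 luminal markers, TFF1, KRT8 and KRT18 did and ESR1, PGR, GATA3 and FOXA1 did not. CDH1, ESRP1 and the blood marker PTPRC had no promoter peak, and EPCAM had one in 2 lists. The endothelial marker PECAM1 had a peak of 14.3-fold enrichment in MDA-MB-231 replicate 2, of 2.82-fold in Hs578T replicate 1 and none in Hs578T replicate 2.

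A receptor promoter was called marked where a peak overlapped the 1 kb on either side of the start site of its Ensembl canonical transcript. The canonical promoter was marked in 27, 26 and 24 of the 45 genes, or 60.0%, 57.8% and 53.3%. Over all protein-coding genes the shares were 58.1%, 58.2% and 56.4%, so the family as a whole was marked about as often as genes in general. Between the Hs578T lists the count was 25 ± 1.41 (SD, n = 2). When every basic start site of a gene was allowed, the counts were 31, 31 and 30, against 60%, 60.2% and 58.5% of all genes.

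Calls were shared by the large lists for 42 of the 45 genes. In all 3 lists 24 canonical promoters were marked (all genes, 55.6%), and 18 were unmarked in all 3. Only ESR2, THRA and PPARA differed among the lists, which is 3 of 45 beside 3.69% of all genes. Another 4 genes, RARA, RARB, HNF4G and NR2E3, carried a peak at a different start site in every large list and at the canonical one in none (all genes, 1.65%). No start site was marked in 14 genes (all genes, 38.6%). A missing peak says only that none passed the authors' threshold, since the depth of the libraries is unknown. In bulk chromatin, fewer cells with the mark and less mark per cell cannot be told apart.

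**Figure D1:**
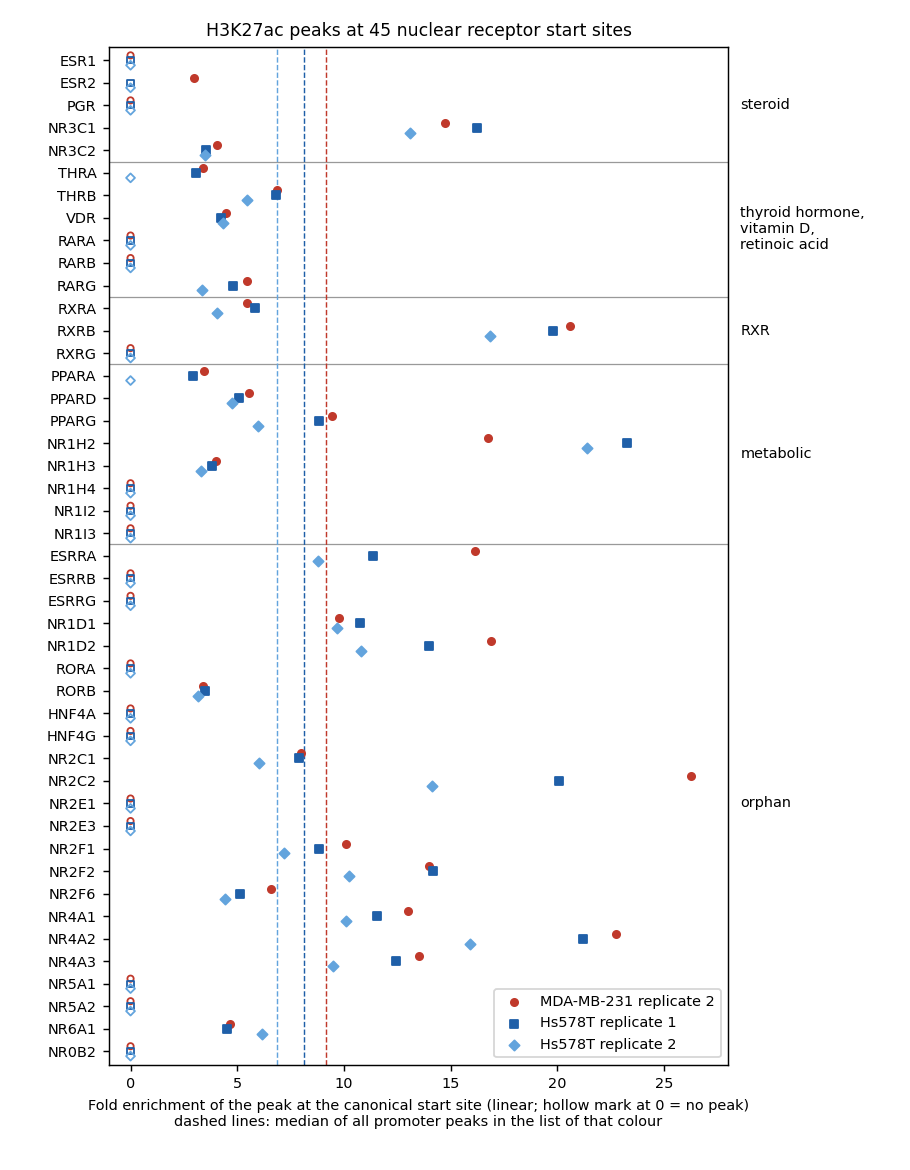
Fold enrichment of the H3K27ac peak at the canonical start site (x axis, linear ratio over each library's own background) for the 45 receptor genes grouped by class (y axis), with 1 mark per large list and hollow marks at 0 where no peak was called. Dashed lines give the median of all promoter peaks in each list (9.18, 8.13 and 6.86); all marked genes of the thyroid hormone, vitamin D and retinoic acid class lie to the left of the line of their list.

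Hormone and orphan receptors were then compared by how often and how strongly they were marked. The canonical promoter was marked in 7, 6 and 5 of the 11 hormone receptor genes and in 20, 20 and 19 of the 34 orphan and metabolic receptor genes. Over the Hs578T lists these counts were 5.5 ± 0.707 and 19.5 ± 0.707 (SD, n = 2). With every basic start site allowed they became 9, 9 and 9 of 11, and 22, 22 and 21 of 34. Thus 81.8% of hormone receptor genes had a marked start site in each large list (all but ESR1 and PGR). The share was 64.7%, 64.7% and 61.8% for the others and 60%, 60.2% and 58.5% for all genes. At the canonical start site alone it was 63.6%, 54.5% and 45.5% for hormone receptors and 58.8%, 58.8% and 55.9% for the others. A gene with more basic start sites has more chances of a call, and their number, 1 to 15 per receptor gene, was not adjusted for. Genes are not replicates of a class, and no test was made.

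At canonical start sites, peaks of hormone receptor genes were weaker than those of orphan receptor genes and nearer to those of metabolic receptor genes. Other start sites of ESR2 and RARA, described below, carried stronger peaks. The median fold enrichment of marked promoters, a ratio over each library's own background, was 4.48, 4.54 and 4.35 for hormone receptors and 9.93, 9.79 and 8.79 for orphan and metabolic receptors. Taken by class, it was 13.0, 11.4 and 9.50 for orphan receptors but 5.53, 5.06 and 5.35 for metabolic receptors. Among all promoter peaks of the same lists it was 9.18, 8.13 and 6.86. Of the 5 hormone receptor promoters marked in every large list, only that of NR3C1 was above the list's median in all 3, and the other 4 were below it in all 3. Of the 19 orphan and metabolic promoters marked in every list, 11 were above the median in all 3, 7 below in all 3, and PPARG was split. Among the strongest 50% of peaks by score, 2 of 11 hormone receptor promoters remained in each large list, those of NR3C1 and THRB, beside 44.96%, 45.9% and 42.3% of all genes. Of the 34 orphan and metabolic receptor promoters, 15 remained in MDA-MB-231 replicate 2 and a mean of 16 in Hs578T. Covered bases within 50 kb had a median of 4313, 4083 and 3628 around hormone receptor genes and of 6012, 6912 and 6034.5 around the others. For all genes it was 3824, 4223.5 and 3891. This order did not hold for every class. The median was 6342.5, 7160.5 and 6522.5 for thyroid hormone, vitamin D and retinoic acid receptors, above the 5396, 5818 and 4716 of orphan receptors. It was 4313, 4083 and 3628 for steroid receptors.

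**Figure D2:**
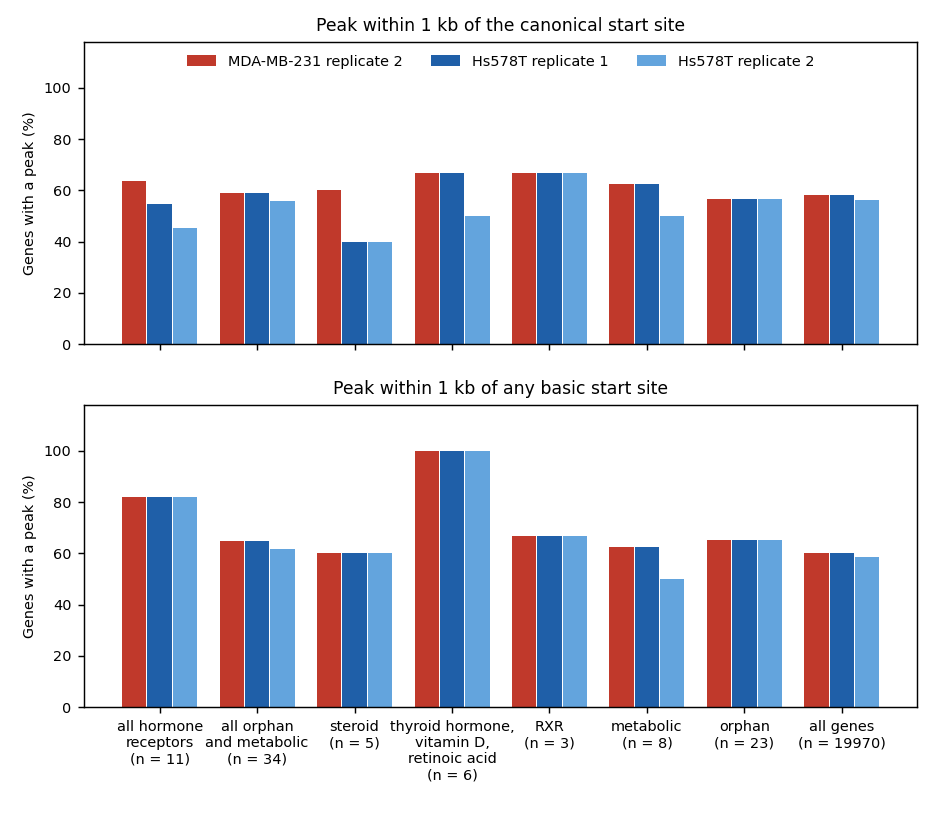
Share of genes (y axis, percent) with an H3K27ac peak within 1 kb of the canonical start site (top) or of any basic start site (bottom), by receptor class (x axis, number of genes in brackets), with 1 bar per large list and all protein-coding genes at the right. Shares at canonical start sites run from 40.0% to 66.7%, and with any start site allowed all 6 genes for thyroid hormone, vitamin D and retinoic acid receptors are marked.

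Among the steroid receptors, the glucocorticoid receptor gene NR3C1 stood apart. Its start site at chr5:143403686 lay in a single peak 10814, 11092 and 10905 bp wide, which reached 7912, 8162 and 7974 bp into the gene. Its fold enrichment was 14.7, 16.3 and 13.1, and its width exceeded that of 98.7%, 98.3% and 98.6% of promoter peaks. The peak took in 6 of 8 basic start sites of NR3C1, and peaks covered 12697, 13669 and 12774 bases within 50 kb. The mineralocorticoid receptor gene NR3C2, the closest relative of NR3C1 in the family, had a broad but weak promoter peak. It was 4313, 4083 and 4115 bp wide with a fold enrichment of 4.04, 3.55 and 3.49, and no other peak was called within 50 kb.

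The estrogen and progesterone receptor genes carried little or no mark. ESR1, encoding estrogen receptor alpha, had no peak at any of 6 basic start sites, and the nearest peak lay 43.2, 43.2 and 43.1 kb from the canonical one with a fold enrichment of 3.56, 2.77 and 2.94. Inside the 473 kb gene 6, 8 and 7 peaks were called, all more than 1 kb from a start site of ESR1. The strongest of these, 6.53, 4.97 and 5.63-fold, lay about 287 kb downstream in an intron, within 1 kb of the start of a lncRNA. PGR, the progesterone receptor gene and a known estrogen target, had 0 peaks in the gene and 0 covered bases within 50 kb, and its nearest peak was 199.5 kb away in each list. The promoter window of PGR also holds the start of PGR-AS1, an antisense lncRNA, which was unmarked with it.

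ESR2, which encodes estrogen receptor beta, was marked at the canonical start site in 1 list. The peak there was 496 bp wide with a fold enrichment of 2.95 in MDA-MB-231 replicate 2, lower than all but 0.893% of promoter peaks in that list, and had no counterpart in the Hs578T lists. It was lost with a threshold of 2 on the −log10 q-value. A pair of start sites 43.7 kb upstream was marked in all 3 lists, with 15.96, 13.4 and 10.3-fold enrichment. Those sites share their window with the start of a second annotated gene (ENSG00000214770), so the peak cannot be assigned to ESR2 alone.

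NR3C1 and ESR1 also differed in promoter sequence, with 42 and 11 CpG in the 250 bases before the start site. NR3C2, whose promoter was marked in every large list, held 11 CpG there, as many as ESR1. A stretch of NR3C1 and of ESR1 is shown, together with that of NR2C2, the orphan promoter with the highest mean fold enrichment over the 3 lists. Each run is 200 bases of hg38 on the gene's own strand, read 5′ to 3′, with CpG dinucleotides in capitals. It is the closest stretch before the canonical start site that holds no annotated untranslated base. The run of NR3C1 (chr5:143404130-143404329, minus strand, 444 to 643 bases before the start) holds 29 CpG and lies inside the peak in all 3 lists. That of ESR1 (chr6:151806996-151807195, plus strand, 487 to 686 bases before) holds 2 CpG and lies in none. The run of NR2C2 (chr3:14947383-14947582, plus strand, 1 to 200 bases before) holds 35 CpG and lies inside the peak in all 3.
NR3C1: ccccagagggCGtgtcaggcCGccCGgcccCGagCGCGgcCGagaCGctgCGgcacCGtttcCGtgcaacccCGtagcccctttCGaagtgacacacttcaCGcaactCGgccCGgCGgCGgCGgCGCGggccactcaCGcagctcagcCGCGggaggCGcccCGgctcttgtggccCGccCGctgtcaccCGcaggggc
ESR1: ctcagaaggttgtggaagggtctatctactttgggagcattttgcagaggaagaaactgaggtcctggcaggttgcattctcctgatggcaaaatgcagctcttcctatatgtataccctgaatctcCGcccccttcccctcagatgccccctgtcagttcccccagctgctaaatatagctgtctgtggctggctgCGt
NR2C2: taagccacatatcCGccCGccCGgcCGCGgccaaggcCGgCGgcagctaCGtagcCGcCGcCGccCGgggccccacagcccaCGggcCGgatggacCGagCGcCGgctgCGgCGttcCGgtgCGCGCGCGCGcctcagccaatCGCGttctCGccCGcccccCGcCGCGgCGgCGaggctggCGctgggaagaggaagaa

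**Figure D3:**
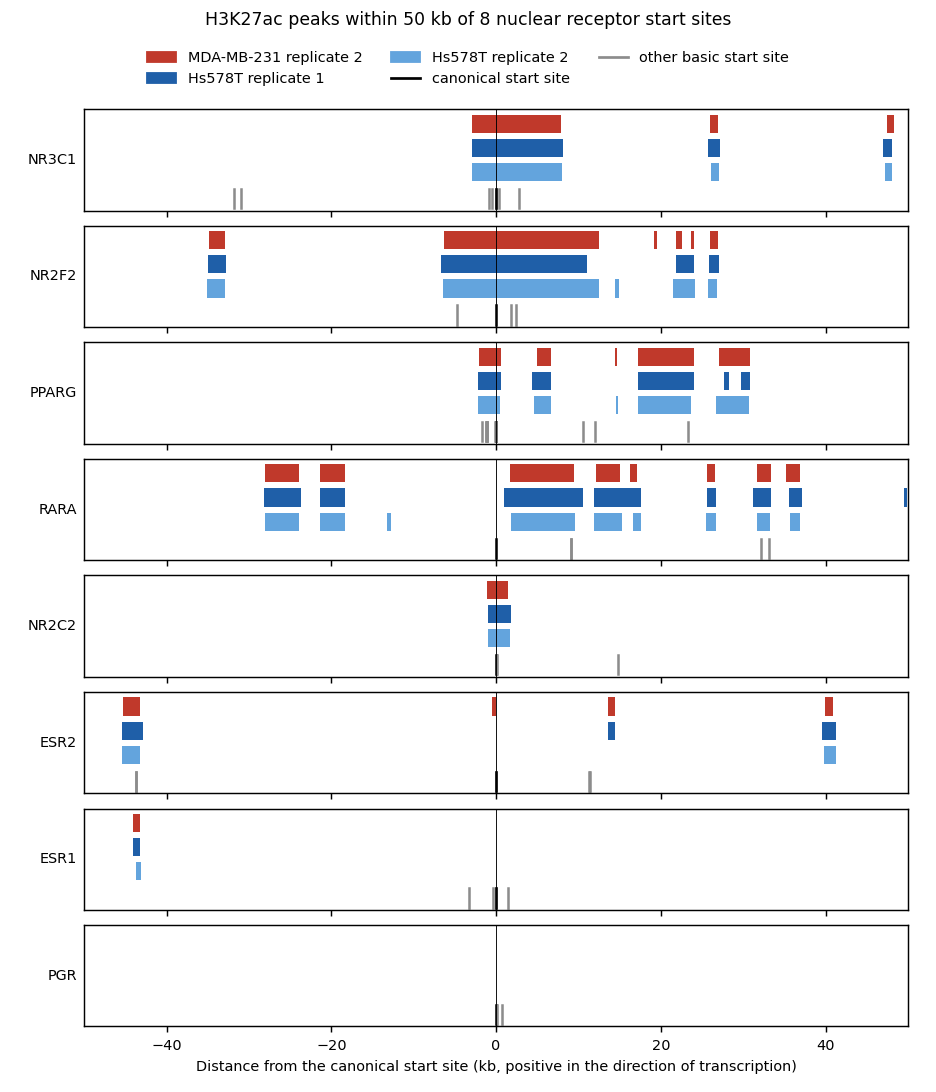
H3K27ac peaks (bars, 1 row per large list) within 50 kb of the canonical start site of 8 receptor genes, plotted by distance in kb along the direction of transcription (x axis), with ticks for canonical (black) and other basic (grey) start sites. Wide peaks span the NR3C1 and NR2F2 start sites in all 3 lists. RARA has peaks on both sides of its canonical start site but none at it. ESR1 shows 1 peak near the edge of the window and PGR shows none.

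All 6 genes for thyroid hormone, vitamin D and retinoic acid receptors had a marked start site in each large list, and where the canonical promoter carried a peak it was below the median promoter peak of its list. THRB, for thyroid hormone receptor beta, had the strongest canonical peak of this class, with a fold enrichment of 6.84, 6.80 and 5.46 and 8 of 10 basic start sites marked. Its window also holds the start of the antisense THRB-AS1. RARG, the retinoic acid receptor gamma gene, followed with 5.44, 4.81 and 3.35-fold enrichment and all 4 basic start sites marked. The vitamin D receptor gene VDR had 4.48, 4.26 and 4.35-fold enrichment over 2157, 1995 and 1536 bp, and shares its window with the start of a lncRNA 128 bp upstream. In the ranks of each list these peaks stood between the 6.96 percentile (RARG, Hs578T replicate 2) and the 38.5 percentile (THRB, Hs578T replicate 1) of promoter peaks.

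THRA, for thyroid hormone receptor alpha, was near the threshold. Its canonical peak was 356 and 308 bp wide with 3.40 and 3.06-fold enrichment in MDA-MB-231 replicate 2 and Hs578T replicate 1, and no peak was called there in Hs578T replicate 2. A start site 5.94 kb downstream was marked in every large list with 3.50, 3.38 and 2.64-fold enrichment. The 17495, 18761 and 16596 bases covered within 50 kb of THRA include the promoter peak of NR1D1, a clock gene on the opposite strand with its start site 37.6 kb away.

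The genes for retinoic acid receptors alpha and beta were marked away from their canonical start sites. At RARA no peak was called within 1 kb of the canonical start, and the nearest began 1691, 1004 and 1784 bp from it. The other 4 basic start sites were marked in all 3 lists: a pair 9.10 kb downstream under a peak 7786, 9564 and 7836 bp wide with 8.30, 8.08 and 7.15-fold enrichment, and a pair 32.2 and 33.2 kb downstream with 10.3, 9.43 and 6.34-fold enrichment. The first pair shares its window with the start of ENSG00000287644, and the last site with that of RARA-AS1. RARA also had more covered bases within 50 kb than 97.1%, 97.97% and 97.1% of all genes, namely 23233, 27944 and 23451. With a window of 2.5 kb in place of 1 kb, RARA was the only receptor gene that became marked. RARB showed the opposite surroundings, with 0 covered bases within 50 kb of the canonical start. Its marked start sites, 2 of 11, lay 740 kb upstream and carried 735, 689 and 627 bp peaks of 3.10, 3.27 and 3.27-fold enrichment.

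Sequences before the unmarked canonical start sites of RARA and RARB are shown, with that before the marked start of RARB. Each is 200 bases of hg38, plus strand, 5′ to 3′, with CpG in capitals. At RARA the run before the canonical start (chr17:40308980-40309179) holds 10 CpG and 0 covered bases in all 3 lists. At RARB the run before the canonical start (chr3:25427686-25427885, 378 to 577 bases upstream) holds 3 CpG and 0 covered bases in all 3 lists. The run before the marked start 740 kb upstream (chr3:24687687-24687886) holds 7 CpG and 0 covered bases in all 3 lists.
RARA canonical: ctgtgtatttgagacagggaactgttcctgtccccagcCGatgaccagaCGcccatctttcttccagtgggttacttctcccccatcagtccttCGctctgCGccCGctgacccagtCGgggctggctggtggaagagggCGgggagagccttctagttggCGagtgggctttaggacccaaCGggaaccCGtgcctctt
RARB canonical: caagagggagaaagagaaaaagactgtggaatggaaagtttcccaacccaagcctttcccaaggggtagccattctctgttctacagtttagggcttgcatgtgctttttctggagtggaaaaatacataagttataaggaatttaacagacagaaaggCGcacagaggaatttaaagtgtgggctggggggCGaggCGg
RARB upstream start: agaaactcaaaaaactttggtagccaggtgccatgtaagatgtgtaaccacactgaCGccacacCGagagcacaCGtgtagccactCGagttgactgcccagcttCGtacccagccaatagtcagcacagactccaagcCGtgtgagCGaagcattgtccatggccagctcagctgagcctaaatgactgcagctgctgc

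The retinoid X receptors, common partners of the heterodimeric receptors, were split. RXRB had a peak of 20.6, 19.8 and 16.9-fold enrichment, above 93.3%, 94.2% and 95.7% of promoter peaks. Its start site is 161 bp from that of SLC39A7, a zinc transporter gene read in the opposite direction, so the peak cannot be assigned to RXRB alone. RXRA had a broad peak of 5889, 5766 and 5720 bp at a lower 5.47, 5.81 and 4.06-fold enrichment. RXRG had no peak at either of 2 basic start sites, 0 covered bases within 50 kb and its nearest peak 153, 152 and 153 kb away.

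Among the metabolic receptors, genes for receptors of oxysterols and fatty acids were marked and those of bile acids and foreign compounds were not. NR1H2, for the widely expressed oxysterol receptor LXR beta, had the strongest promoter of the class at 16.7, 23.3 and 21.4-fold enrichment, though in a narrow peak of 1145, 1401 and 1107 bp. NR1H3, for LXR alpha, had 3.998, 3.81 and 3.29-fold enrichment. The fatty acid receptor gene PPARG, known for its part in fat cell formation, had 9.45, 8.84 and 5.96-fold enrichment and 11 of 15 basic start sites marked. PPARD had 5.53, 5.06 and 4.74-fold enrichment in peaks of 583, 502 and 301 bp that began 34, 67 and 75 bp beyond the start site. PPARA was called in MDA-MB-231 replicate 2 and Hs578T replicate 1 at 3.43 and 2.93-fold enrichment and not in Hs578T replicate 2, where its nearest peak was 8.38 kb away.

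NR1H4 (the bile acid receptor FXR), NR1I2 (the xenobiotic receptor PXR) and NR1I3 (the xenobiotic receptor CAR) had no peak at any basic start site and none inside the gene. Around NR1H4 and NR1I2 there were 0 covered bases within 50 kb, with the nearest peak 99.4, 99.3 and 99.3 kb and 81.6, 81.5 and 81.5 kb away. Around NR1I3 2862, 3552 and 2707 bases were covered, in a window that holds 6 canonical start sites of other coding genes. All 3 genes are best known from liver and intestine.

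Orphan receptors were marked in 13 of 23 cases (56.5%) in each large list, the same 13 genes. That share was near the 58.1%, 58.2% and 56.4% of all genes. Of the 13 marked genes, 9 were above the median promoter peak of every list. NR2C2, for the testicular receptor TR4, had the highest mean fold enrichment of these, with 26.2, 20.1 and 14.1 in peaks of 2546, 2726 and 2767 bp, though NR4A2 was higher in both Hs578T lists. It shares its window with FGD5-AS1, a lncRNA whose start lies 45 bp away on the other strand, and no other peak was called within 50 kb. Its relative NR2C1 had 8.00, 7.90 and 6.04-fold enrichment.

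All 3 NR4A genes, known as immediate early genes, were marked above the median promoter peak of every list. NR4A2 reached 22.8, 21.2 and 15.9-fold enrichment, above 95.7%, 95.7% and 94.4% of promoter peaks, with all 7 basic start sites marked. NR4A3 had 13.5, 12.4 and 9.50-fold enrichment, with no other peak within 50 kb. NR4A1 had 13.0, 11.5 and 10.1-fold enrichment. So were the circadian repressors, with NR1D2 (REV-ERB beta) at 16.9, 14.0 and 10.8-fold enrichment and NR1D1 (REV-ERB alpha) at 9.78, 10.7 and 9.68.

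The COUP transcription factor genes had wide promoter peaks. NR2F2, which governs vein and mesenchyme identity, lay in a peak of 18840, 17728 and 18957 bp, wider than 99.7%, 99.5% and 99.7% of promoter peaks. That peak covered the whole 14326 bases of the gene, with a fold enrichment of 14.0, 14.2 and 10.2. NR2F1 had a peak of 7459, 7575 and 7639 bp with 10.1, 8.81 and 7.18-fold enrichment. NR2F6 had 6.57, 5.13 and 4.42-fold enrichment over 3583, 3547 and 3627 bp. ESRRA, the estrogen-related receptor of mitochondrial metabolism, had 16.1, 11.4 and 8.79-fold enrichment, and 22535, 21310 and 20615 bases were covered around it, in a window with 7 canonical start sites of other coding genes.

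NR6A1 and RORB lay below the median promoter peak of every list. NR6A1, the germ cell nuclear factor, had 4.67, 4.52 and 6.14-fold enrichment. RORB had 3.39, 3.49 and 3.17-fold enrichment in a peak of 994, 706 and 431 bp, the only peak within 50 kb. HNF4G and NR2E3 were marked at another start site. For NR2E3, a photoreceptor gene, that site lay 17.9 kb upstream and carried 14.4, 14.6 and 13.9-fold enrichment. For HNF4G it lay 132 kb upstream, with 4.91, 4.61 and 3.23-fold enrichment.

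The other 8 orphan genes had no marked start site: ESRRB, ESRRG, RORA, HNF4A, NR2E1, NR5A1, NR5A2 and NR0B2. NR0B2, the small heterodimer partner of bile acid signalling, had the most covered bases within 50 kb of all 14 unmarked receptor genes, 9758, 9821 and 9213, among the canonical start sites of 4 other coding genes. NR1I3 came next, and NR2E1, a neural gene whose window also holds the start of OSTM1, followed with 974, 1251 and 1536 bases. The fewest, 0 in every large list, were found at PGR, RXRG, NR1H4, NR1I2, ESRRB, ESRRG and RORA. HNF4A, a liver and gut regulator whose window holds the start of R3HDML-AS1, had 632, 275 and 0 covered bases. NR5A1 and NR5A2, steroid synthesis and liver regulators, had at most 1033 and 685.

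**Figure D4:**
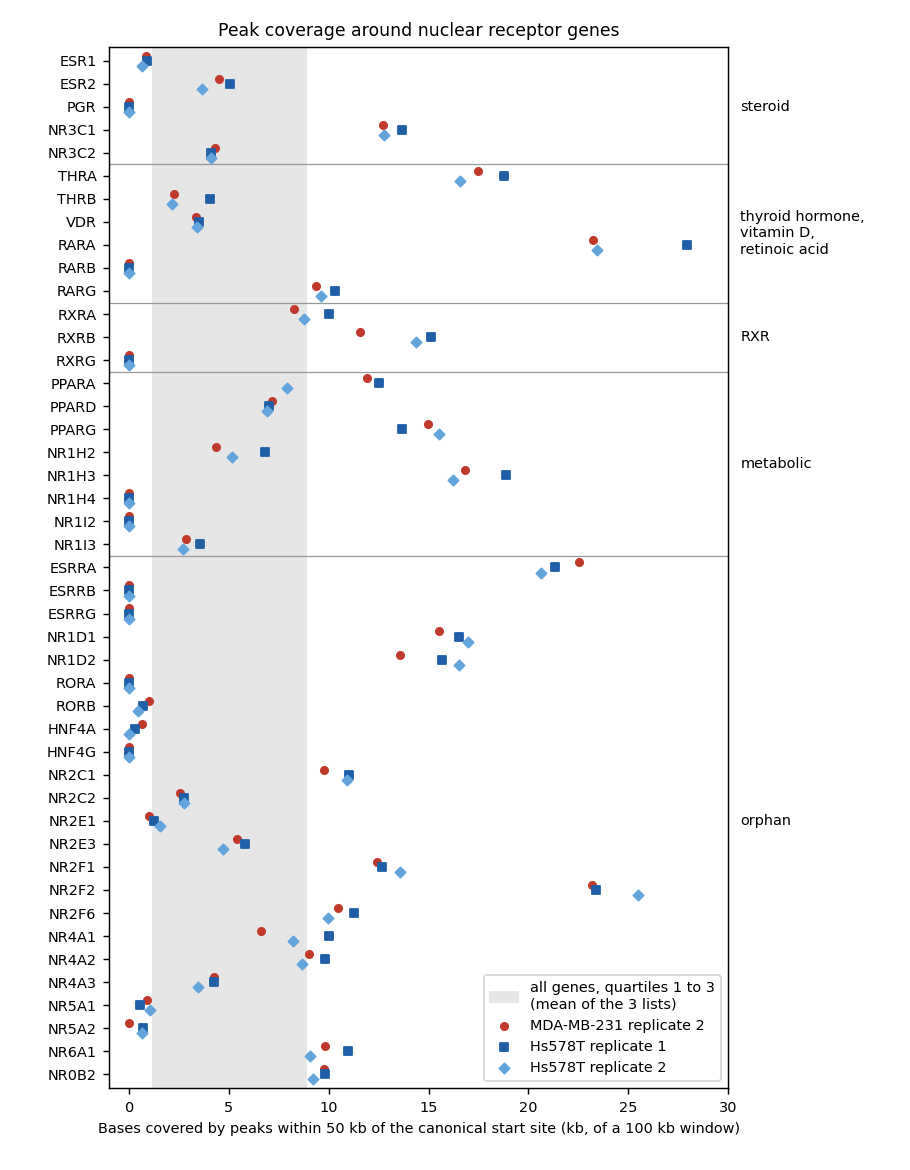
Bases covered by H3K27ac peaks within 50 kb of the canonical start site (x axis, kb) for the 45 receptor genes by class (y axis), 1 mark per large list, with a grey band for the middle range of all protein-coding genes. RARA and NR2F2 lie at the right end in all 3 lists, and 9 genes lie at 0 in all 3.

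Within 50 kb, promoter peaks included, receptor genes had a somewhat higher median of covered bases than genes in general, with a wide range. The median over the 45 genes was 4488, 5818 and 4716 bases within 50 kb, against 3824, 4223.5 and 3891 for all genes. The mean of the Hs578T medians was 5267 ± 779 (SD, n = 2). The middle of all genes reached from 1186 to 8545 bases (quartiles, MDA-MB-231 replicate 2). At the same time 10, 9 and 10 of the 45 receptor genes had 0 covered bases, beside 17.2%, 16.8% and 17.4% of all genes. Neighbouring genes moved with this measure. In the 29 receptor genes without the canonical start site of another coding gene within 50 kb the median was 2250, 2726 and 2166 bases, and in the 16 with 1 or more it was 10149, 11096 and 9798.5. Their part in the result was not tested.

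Strong peaks inside receptor genes did not always go with a marked start site. Of the 14 genes without a marked start site, ESR1 and ESRRG had a peak inside the gene in all 3 large lists, RORA and NR5A2 in 2, and the other 10 in none. A longer gene has more room for a peak. Gene length, from 2.49 kb (NR0B2) to 741 kb (RORA) among these 14, was not adjusted for. The share over all unmarked genes was not computed, so the count describes these 14 alone. At ESRRG, the estrogen-related receptor gamma gene, an intronic peak 122 kb from the canonical start had 22.6, 26.8 and 21.6-fold enrichment, above 97.1%, 98.8% and 98.5% of all peaks. No basic start site of any gene lay within 1 kb of it. THRB held the strongest peak within any of the hormone receptor genes, at 24.3, 28.5 and 26.5-fold enrichment and 2819, 2926 and 2806 bp wide. It lay 349, 349 and 348 kb from the canonical start near the far end of the gene, with its midpoint in an intron. In RARA an intronic peak about 13.6, 14.7 and 13.6 kb from the canonical start had 18.4, 15.2 and 16.2-fold enrichment.

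The middle 200 bases of the stretch shared by the 3 lists are shown for the ESRRG and THRB peaks, since no start site lies within 1 kb of either and they differ in composition. Both are hg38, minus strand, 5′ to 3′, with CpG in capitals. The run from ESRRG (chr1:216600987-216601186) holds 20 CpG at 74.5% GC, and the run from THRB (chr3:24146238-24146437) holds 0 at 40.5% GC. Neither holds the AP-1 motif TGANTCA, which was present in 23.7%, 22.5% and 22.05% of the middle 200 bases of peaks away from start sites.
ESRRG intronic peak: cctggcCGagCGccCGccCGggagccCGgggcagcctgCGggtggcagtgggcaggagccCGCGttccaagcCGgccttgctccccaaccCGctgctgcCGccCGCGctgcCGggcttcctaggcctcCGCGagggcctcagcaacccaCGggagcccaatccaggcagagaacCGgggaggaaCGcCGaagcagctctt
THRB intronic peak: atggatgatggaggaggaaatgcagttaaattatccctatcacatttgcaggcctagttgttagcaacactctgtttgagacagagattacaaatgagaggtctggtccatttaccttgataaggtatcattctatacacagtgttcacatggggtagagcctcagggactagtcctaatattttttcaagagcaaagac

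Promoter composition was then compared with the mark, in the 250 bases before each canonical start site. The 24 promoters marked in all 3 large lists held a median of 23.5 CpG at 68.8% GC, and the 18 unmarked in all 3 held 7 CpG at 56.0% GC. Over all genes the medians were 22 and 6 CpG, so the receptor genes followed the general pattern. At least 10 CpG were found in 21 of 24 marked promoters (all marked genes, 91.0%) and in 6 of 18 unmarked ones (all unmarked genes, 41.4%). The unmarked promoter with the most CpG was that of RXRG, with 24, followed by RORA with 19. The marked promoters with fewer than 10 were those of NR1H3 with 6, NR2F1 with 8 and PPARG with 9. ESR2, THRA and PPARA, whose calls differed among the lists, held 17, 39 and 41 CpG.

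**Figure D5:**
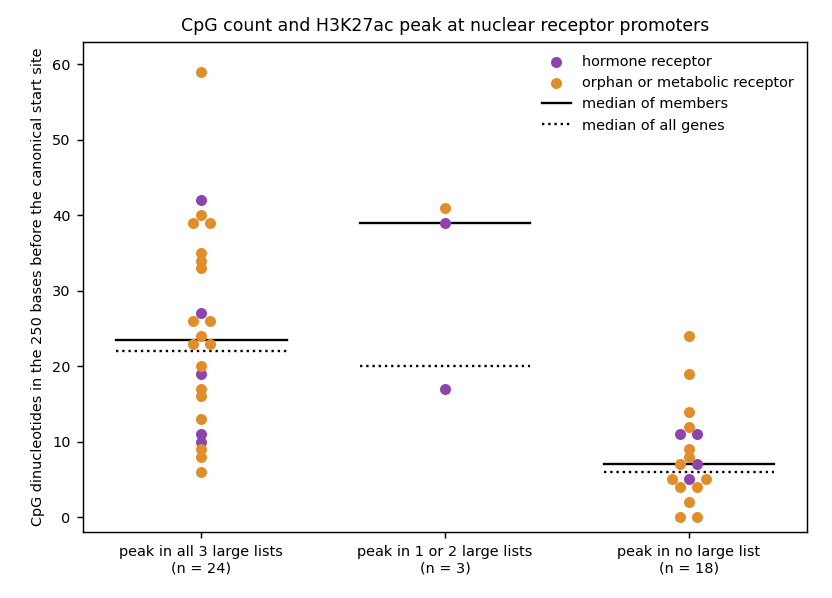
CpG dinucleotides in the 250 bases before the canonical start site (y axis, count) of the 45 receptor genes, by whether a promoter peak was called in all, some or none of the 3 large lists (x axis), with solid lines for medians of the receptor genes and dotted lines for all genes. Marked promoters centre on 23.5 CpG and unmarked ones on 7, with RXRA highest at 59.

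Short motifs were counted in the same 250 bases on both strands, as a description of sequence and not of binding. The GC box GGGCGG was present in 19 of 24 marked and 7 of 18 unmarked receptor promoters, beside 72.8% and 39.3% of all genes in the same states. The half-site AGGTCA, which many nuclear receptors recognise, was present in 5 of 45 receptor promoters (PPARG, ESR2, RARA, RXRG and NR5A2) and in 9.98% of all genes. TGANTCA was present in 3 of 45 (NR2C1, NR1I3 and NR5A2) and in 4.73% of all genes, CCAAT in 19 of 45 and in 34.3%, and TATAAA in 5 of 45 and in 9.36%. The full palindromic estrogen response element was found in 0 of 45 and in 0.0351% of all genes, and the full glucocorticoid response element in 0 of 45 and in 0 of 19969.

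The coregulator and chaperone genes listed here were marked more widely than the receptor genes. Of 25 coregulator and chaperone genes, 24 had a peak at the canonical start site in every large list, namely 12 of 13 coactivators, all 8 corepressors and all 4 chaperones. The exception was PPARGC1B, a coactivator of oxidative metabolism, with 0, 226 and 0 covered bases within 50 kb. The highest means over the 3 lists were those of EP300, an acetyltransferase that writes H3K27ac, at 21.6, 16.6 and 11.8-fold enrichment, PTGES3, a cochaperone of steroid receptors, at 20.9, 16.1 and 12.2, and the methyltransferase gene PRMT1 at 17.2, 16.6 and 13.9. Of this list 96% was marked in every large list, beside 55.6% of all genes. The list was chosen by name with earlier results of these data known, so its share describes these genes alone.

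Of 34 known target genes 19 were marked at the canonical start site in every large list and the other 15 in none. Their share of 55.9% was near the 55.6% of all genes, and the groups within the list are small. With any basic start site allowed, 21 were marked in every large list, beside 60%, 60.2% and 58.5% of all genes in each list by itself. Glucocorticoid targets had 6 of 8 marked, including DUSP1, a phosphatase of stress kinases, at 16.9, 17.7 and 14.6-fold enrichment. SGK1 and ZBTB16 were unmarked at the canonical start, but SGK1 had a peak at 5, 4 and 5 other basic start sites and ZBTB16 at none. Of the estrogen targets TFF1 and XBP1 were marked and GREB1 and CA12 were not. Of 5 retinoic acid targets DHRS3 and TGM2 were marked, and the catabolism genes CYP26A1 and CYP26B1 and the retinol carrier receptor gene STRA6 were not. The vitamin D catabolism gene CYP24A1 was unmarked. Among thyroid hormone targets KLF9 was marked and HR and DIO1 were not. Lipid targets of PPAR and LXR were marked in 7 of 9 cases, led by SREBF1 at 30.5, 20.1 and 15.6-fold enrichment. The exceptions were FABP4 and ABCG1, of which ABCG1 was marked at another start site in every large list. The FXR and PXR targets SLC51A, SLC51B and CYP3A4 had no peak, and neither did their receptors. The clock genes BMAL1, NPAS2 and CRY1 were all marked, CRY1 at 16.2, 16.8 and 15.7-fold enrichment. A marked promoter does not show that a receptor acted on it.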

How the data were processed

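H3K27ac ChIP-seq was performed in biological replicates. Per the study's methods and the submitters' processing notes, the authors trimmed reads with Trimmomatic, mapped them to hg38 with Bowtie2, called peaks per library with MACS2 with input subtracted and removed blacklisted regions with bedtools, and deepTools is also named. Versions and settings are not given in the sources used here, and 9 columns point to broad mode. The deposited lists hold a score, a fold enrichment (a ratio over local background), and −log10 p-values and q-values, all made by the authors. The deposited score equals 10 times the −log10 q-value to within 1 in all peaks. Since each library sets the background of its fold enrichment, sizes were not tested between lists, and means over the 3 large lists served only to choose which genes to name. Weak peaks can pass in one library and miss in another, and read depth is unknown, so no interval is given.

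Start sites came from GENCODE release 44, and all sequence names matched the reference, with 0 peaks past a sequence end. Overlap was at least 1 bp. Covered bases are those under peaks in a window of 50 kb on each side. Overlap functions were tested on simulated data, and Python 3.11.15, pandas 2.3.3 and numpy 2.4.6 were used. Groups came from sample titles and characteristics, and no test was made.

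The members and lists were chosen with earlier results of these data known. Named genes were the steroid receptors, the 3 strongest of each class by mean fold enrichment, those with differing calls, those marked only at other start sites, the unmarked with most and least covered bases, those sharing a promoter window, and from the other lists the 3 strongest and the unmarked. Other members are given so that all 45 are accounted for, and intronic peaks, width and neighbours were added after values were seen. Sequences were read from hg38. Alternatives were stricter scores, other windows and overlaps, equal list sizes, merged peaks, all start sites and left-out replicates.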

Additional observations from a re-analysis of the deposited data

How the results depend on the processing

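No paired analysis was possible because no result came from a test between groups, so a replicate block could not be fitted. Counts of marked genes kept within 1.5 times their value under most settings. With the strongest 50% of peaks by score, marked receptor promoters in MDA-MB-231 replicate 2 fell to 17 (37.8%, while all genes fell from 58.1% to 44.96%), and hormone receptor promoters to 2 there and to a mean of 2 in Hs578T. Where the peak had to cover the start site itself, 5 calls differed among the large lists, with NR2C1 and RORB joining ESR2, THRA and PPARA, while PPARD was unmarked in all 3. The median covered bases moved with the window by construction, to 1851 and 2208.5 (MDA-MB-231 replicate 2, Hs578T mean) at 10 kb and 11841 and 11783 at 100 kb, and to 3419 and 3923.5 with the strongest 50%.

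Leaving out replicates gave wide ranges for MDA-MB-231, since only the small list was left without replicate 2: 0 to 27 marked receptors, 0 to 31 at any start site, 0 to 7 hormone receptors, 0 to 20 orphan and metabolic receptors, 0 to 24 coregulators, 0 to 19 targets and a median of 0 to 4488 covered bases. For Hs578T the ranges were 24 to 26 and 30 to 31 receptors, 5 to 6 hormone receptors, 19 to 20 orphan and metabolic receptors, and 4716 to 5818 covered bases. Over the large lists, 24 to 26 promoters were marked in every remaining list and 1 to 3 calls differed, 1 of them without Hs578T replicate 2. Peaks near the threshold (ESR2, THRA, PPARA) limit these counts. The lines could not be compared because 1 of 2 MDA-MB-231 lists was nearly empty. Peak overlap also did not set the other one apart from the Hs578T lists.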

Other observations

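The retinoic acid target TGM2, noticed after its values were seen, had a promoter peak of 4.01-fold enrichment in MDA-MB-231 replicate 2 and of 18.9 and 18.8-fold in Hs578T replicates 1 and 2. The covered bases within 50 kb were alike, 40232, 41795 and 37759, and the promoter peak was 2138 bp wide in the first list against 7871 and 6909 bp in the others. The part of peak division in the difference was not tested.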
